A study of Mus musculus with 63 samples.

Results

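The genes described here are 38 genes of glycolysis and of the response to low oxygen, followed in cultured mouse epidermal keratinocytes that carried or lacked the epidermal growth factor receptor (EGFR). They were chosen by name, and 34 of the 38 had a probe on the array, out of 14541 genes with a probe of their own. Gpi1, Aldoc, Eno1 and Pdk2 were named by no probe and were not analysed here. Keratinocytes from newborn CD-1 skin of EGFR knockout (KO) or wild-type (WT) mice were either transduced with v-rasHa, a viral oncogenic Ras carried by a retrovirus, in supernatant of Psi-2 producer cells, and grown for 4 days, or left as mock cultures. The EGFR kinase inhibitors AG1478, erlotinib and PD153035 were each given at 1 µM for 2 h. KO cells with ras received AG1478 (6 samples), erlotinib (4 samples), PD153035 (5 samples) or no inhibitor (5 samples), and KO mock cells (3 samples) received none. WT cells with ras received AG1478, erlotinib, PD153035 or no inhibitor (5 samples each). WT mock cells received AG1478, erlotinib or PD153035 (5 samples each) or no inhibitor (4 samples), which makes 13 groups and 62 samples on 63 arrays of 2 colours. KO cells received inhibitors only with ras, and the target of all 3 inhibitors is, by genotype label, missing from KO cells. No label states which exons the knockout removes or whether samples of a group came from separate animals, so p-values speak only of the scatter among these samples, which may be technical.

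Glycolysis turns glucose into pyruvate and yields energy without oxygen, and lactate dehydrogenase then reduces the pyruvate to lactate, which leaves the cell through monocarboxylate transporters. When oxygen is short, prolyl hydroxylases no longer mark hypoxia-inducible factor (HIF) for destruction, and HIF raises the transcription of glucose transporters, most glycolytic enzymes and genes such as Vegfa and Car9. Growth factor receptors and oncogenic Ras are known to raise many of the same genes in other cells, also through MYC and through translation of HIF. HIF binds a short core, ACGTG or GCGTG, and MYC and HIF can both bind the longer CACGTG.

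The windows from 250 bases before to 50 bases after the annotated start were read for 35 of the 38 genes from RefSeq promoter sequences of GRCm38.p6, taking the first listed window of a gene. ACGTG, searched on both strands, was found in 21 of the 35 windows (60%) and in 5315 of the windows of 27025 genes in all (19.7%). GCGTG was found in 19 of the 35 (54.3%) and in 32.5% of all windows, and at least 1 of the 2 cores in 28 of the 35 (80.0%) and in 43.8% of all windows. CACGTG, which contains ACGTG on each strand, stood in 6 of the 35 windows (17.1%) and in 7.2% of all. The windows of these genes were also richer in G and C, with a median of 64.7% against 52.7% for all windows, and the shares were not corrected for that. The 5 windows printed here belong to the 5 genes called between erlotinib and PD153035 in KO ras cells with p-values adjusted over all pairs of inhibitors. They are Slc2a1 at chr4:119108495-119108794 (plus strand), Slc16a3 at chr11:120948817-120949116 (plus strand), Pgk1 at chrX:106186850-106187149 (plus strand), Ldha at chr7:46845554-46845853 (plus strand) and Tpi1 at chr6:124814109-124814408 (minus strand). Capitals mark ACGTG or GCGTG and their reverse complements, and the whole CACGTG where it occurs.
Slc2a1: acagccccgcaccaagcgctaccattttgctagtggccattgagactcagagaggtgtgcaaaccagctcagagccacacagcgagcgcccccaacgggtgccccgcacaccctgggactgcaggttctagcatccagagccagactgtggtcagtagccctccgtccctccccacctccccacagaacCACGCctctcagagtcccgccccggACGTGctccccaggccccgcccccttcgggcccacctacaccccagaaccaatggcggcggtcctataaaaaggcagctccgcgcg
Slc16a3: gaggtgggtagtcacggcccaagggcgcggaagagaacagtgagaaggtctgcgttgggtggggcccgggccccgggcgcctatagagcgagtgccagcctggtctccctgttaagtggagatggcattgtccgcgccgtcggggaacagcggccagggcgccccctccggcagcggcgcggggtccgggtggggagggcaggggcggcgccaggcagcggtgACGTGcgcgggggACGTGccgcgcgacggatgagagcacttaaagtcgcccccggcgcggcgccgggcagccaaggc
Pgk1: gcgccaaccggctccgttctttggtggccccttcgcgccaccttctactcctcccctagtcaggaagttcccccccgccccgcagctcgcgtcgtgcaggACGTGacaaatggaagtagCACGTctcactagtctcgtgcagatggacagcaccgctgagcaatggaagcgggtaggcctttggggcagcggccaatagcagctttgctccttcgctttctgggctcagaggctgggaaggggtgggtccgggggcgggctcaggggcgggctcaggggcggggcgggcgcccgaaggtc
Ldha: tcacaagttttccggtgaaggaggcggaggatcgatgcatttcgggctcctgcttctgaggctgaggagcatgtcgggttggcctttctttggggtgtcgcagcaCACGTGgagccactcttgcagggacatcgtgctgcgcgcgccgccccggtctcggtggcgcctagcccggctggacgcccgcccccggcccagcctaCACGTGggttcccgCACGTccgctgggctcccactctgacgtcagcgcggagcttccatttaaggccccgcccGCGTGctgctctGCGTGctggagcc
Tpi1: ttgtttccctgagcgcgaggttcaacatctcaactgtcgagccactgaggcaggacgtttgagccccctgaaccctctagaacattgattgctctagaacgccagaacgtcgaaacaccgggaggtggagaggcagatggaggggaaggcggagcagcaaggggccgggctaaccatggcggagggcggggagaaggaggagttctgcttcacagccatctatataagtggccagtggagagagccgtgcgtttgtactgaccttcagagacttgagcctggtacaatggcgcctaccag
Slc2a1 held 1 ACGTG and 1 GCGTG, Slc16a3 and Pgk1 held 2 ACGTG each, and Ldha held 5 ACGTG and 2 GCGTG, of which 2 CACGTG count for both strands. The Tpi1 window held neither core. A match is a description of the letters and not a binding site.

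Each array gave the log ratio of 1 sample to a common reference, RNA pooled from 11 mouse cell lines. All values below are log2 of sample over reference, called the level, so a level of 1 means that the sample gave 2 times the signal of the reference, and a difference of levels is a log2 difference. The base of the deposited logarithm is not stated in the sources used here and was taken as log2 from the spread of the values. Levels of different genes are not comparable with each other, since the reference holds each gene in its own amount. Each array gave values for 24860 to 28047 of 28049 probes. By label 12 arrays had reversed dyes, and 2 arrays, those of KO ras AG1478 replicates 3 and 4, ran opposite to their dye label (correlation with the median of the forward arrays -0.830 for replicate 3, labelled forward, and 0.805 for replicate 4, labelled reversed). Ratios of these 2 arrays were turned by the data, and values without them are given where a result rests on them. Keratinocyte markers exceeded reference pool markers by 1.62 to 6.53 on all 63 arrays once turned. The 2 Egfr probes did not separate the genotypes, with levels of 0.22 to 2.77 in 23 KO samples against 0.43 to 3.60 in 39 WT samples for one probe, and of -0.27 to 1.71 in KO against -0.29 to 3.32 in WT samples for the other, so the genotype used here is that of the labels. Arrays fell into 8 runs of closely numbered database entries. KO ras cells with AG1478 and with PD153035 shared 1 run, while untreated KO ras cells lay in 3 other runs, so run and PD153035 cannot be told apart in that comparison. The number of arrays limits the precision, and in bulk samples fewer cells of a type and less RNA per cell cannot be told apart. Tests were limma's moderated tests over all probes with Benjamini-Hochberg adjustment, and a gene was called at an adjusted p under 0.05. Where the samples of a gene are said to lie apart, they do not overlap between groups. The share of all probes with samples apart is given only for KO against WT mock cells.

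Some of the genes stood on 1 side of the reference throughout, and others crossed it. By the probe used, Hif1a (the oxygen-regulated subunit of HIF), Pgk1 (phosphoglycerate kinase), Pgam1 (phosphoglycerate mutase) and Pkm (pyruvate kinase) lay above the reference in all 62 samples. The second Hif1a probe had group means on both sides of the reference, from -0.89 (WT mock) to 0.34 (KO ras). Slc2a1, the main basal glucose transporter, lay above it in 60 of 62 samples, and so did the hexokinase Hk2. Slc2a3, a high-affinity glucose transporter known mainly from neurons, lay below the reference in all 62 samples, with a median of -4.67. Hk1, Eno2 and Ldhb (the hexokinase, enolase and lactate dehydrogenase forms typical of brain or heart) lay below it in all 62 samples as well. Another Hk1 probe had group means of -0.88 to 0.49. Others crossed the reference between groups, such as Egln1 with group means of -1.19 to 0.92 and Tpi1 with -0.85 to 0.88. The 2 other Egln1 probes had group means of -0.43 to 0.68 and -0.52 to 0.64, and the second Tpi1 probe of -1.55 to 0.27. The group means differed by 0.88 (Bnip3l, a mitophagy receptor) to 3.68 (Pfkp, the platelet-type phosphofructokinase) between the lowest and the highest group. The 3 other Pfkp probes had narrower ranges, of -0.42 to 0.15, -1.12 to 0.85 and -0.41 to 1.48. For 13 of the 34 genes the lowest group mean was that of KO ras cells with PD153035, and for 10 the highest was that of KO ras cells with erlotinib. KO mock cells, with 3 samples in a run of their own, had the lowest mean for 9 of the 34. How often each group was lowest or highest over all probes was not counted, so these numbers do not set the 34 genes apart.

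**Figure D1:**
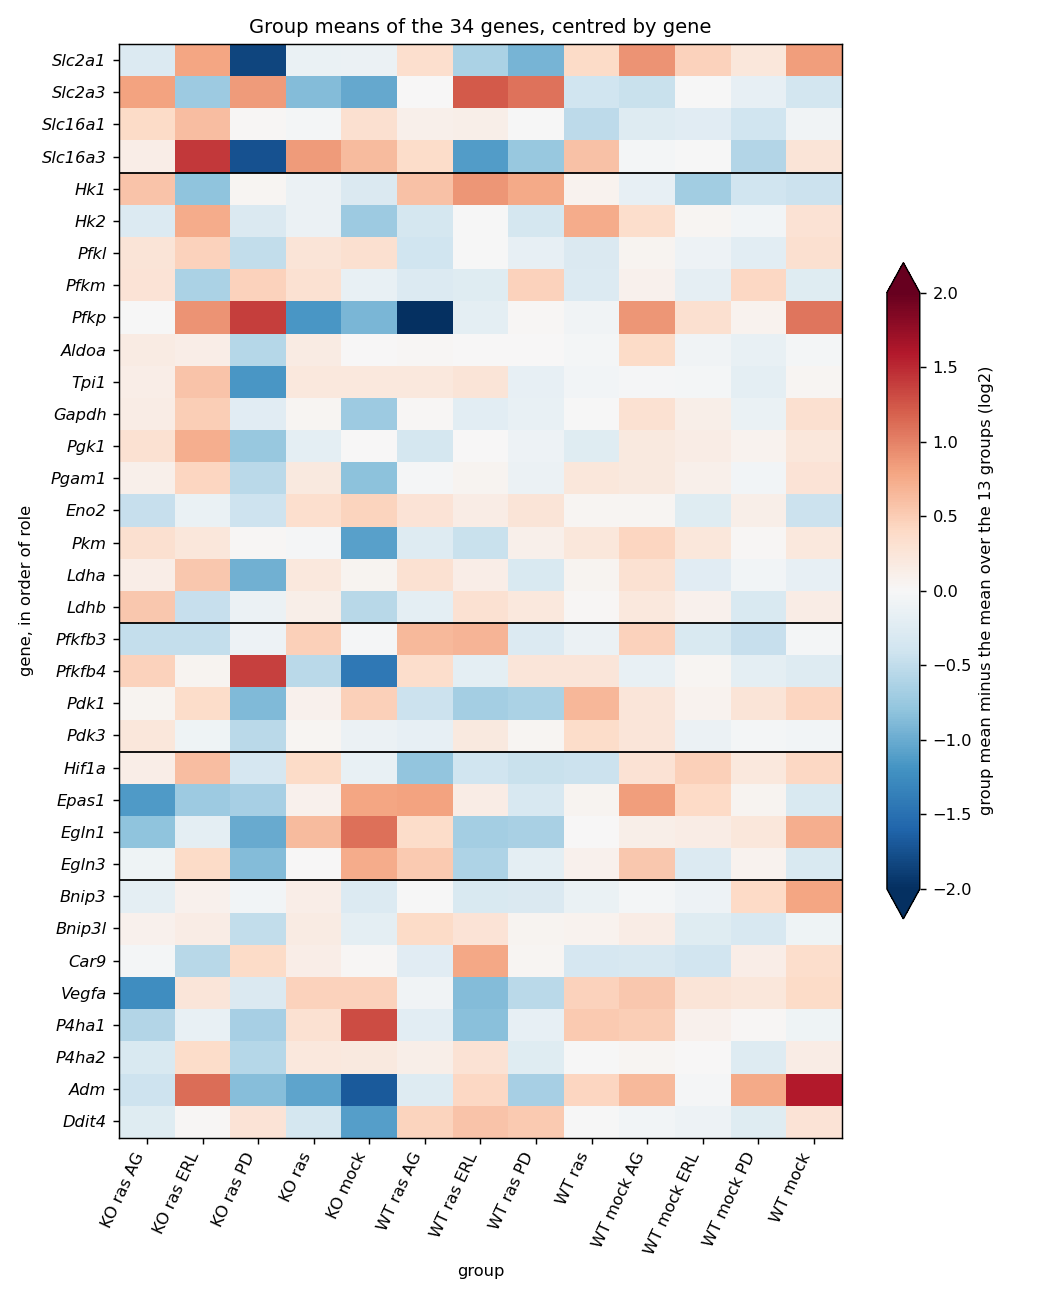
Heat map of the group mean of each of the 34 genes (rows, in order of role, black lines between roles) over the 13 groups (columns), as log2 sample over reference minus the gene's mean over the groups. AG, ERL and PD stand for AG1478, erlotinib and PD153035, red is higher and blue lower, and the column of KO ras cells with PD153035 is blue for Slc2a1, Slc16a3, Tpi1, Ldha and Egln1 and red for Pfkp and Pfkfb4.

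PD153035 in KO ras cells gave the largest number of calls of any comparison with untreated cells. Set against untreated KO ras cells, 5 of 34 genes were lower and 2 were higher, while 4.83% of all 27957 probes tested were called, 2.24% lower and 2.59% higher. The lower genes were the glucose transporter Slc2a1, the lactate exporter Slc16a3, the enzymes Tpi1 (triosephosphate isomerase) and Ldha (lactate dehydrogenase A) and the prolyl hydroxylase Egln1. The median difference over the 34 genes was -0.62, against 0.01 over all probes, and 24 of 34 differences were negative. Between the scaling, dye, array and model settings tried, the median of the 34 genes stayed between -0.76 and -0.55.

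Slc2a1 stood at 0.10, 0.12, 0.26, -0.35 and 0.43 in KO ras cells with PD153035, against 1.01, 1.63, 1.49, 2.13 and 2.83 in untreated KO ras cells. All PD153035 samples lay below all untreated samples, and the mean fell to 0.11 ± 0.29, against 1.82 ± 0.69 in untreated cells (SD, n = 5 each), a log2 difference of -1.71 ± 0.46 (SE; adjusted p = 0.0234, limma), or 3.26-fold lower. Slc16a3, which exports lactate from glycolytic cells, stood at 0.09, -0.40, 0.00, -1.03 and 1.05 with PD153035, against 2.27, 2.31, 2.05, 2.11 and 3.91 in untreated KO ras cells. The groups again did not overlap, and Slc16a3 was 6.01-fold lower with PD153035 (log2 difference -2.59 ± 0.63, limma adjusted p = 0.0135). Of the other transporters, the glucose transporter Slc2a3 differed by 1.71 (adjusted p = 0.223) and the lactate transporter Slc16a1 by 0.06 (adjusted p = 0.931), and neither passed the test.

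Among the 14 glycolytic enzymes measured, Tpi1 and Ldha fell and Pfkp rose, and 10 of the 14 differences were negative. Tpi1, which interconverts the triose phosphates, stood at -1.04, -1.11, -0.71, -0.57 and -0.81 with PD153035, against 0.75, 0.51, 0.24, 0.20 and 0.95 in untreated KO ras cells. The groups lay apart, with a log2 difference of -1.38 ± 0.28 (limma adjusted p = 0.00398). A second Tpi1 probe gave 0.34 (adjusted p = 0.687), and the average of both probes gave -0.52 (adjusted p = 0.209), so the Tpi1 call holds for 1 of its 2 probes. Ldha, which turns pyruvate into lactate and had a single probe, stood at -0.27, -0.49, -0.44, -0.25 and -0.39 with PD153035, against 0.69, 1.10, 0.60, 0.44 and 1.18 in untreated KO ras cells. Its groups lay apart as well, and it was 2.25-fold lower (log2 difference -1.17 ± 0.31, adjusted p = 0.0198). Pgk1 differed by -0.57 (adjusted p = 0.153) on the probe used and by -0.88 on its second probe, which was called (adjusted p = 0.0441). Pfkl (liver-type phosphofructokinase), Aldoa (aldolase A) and Pgam1 differed by -0.75, -0.73 and -0.74, with adjusted p-values of 0.0922, 0.0921 and 0.0900. Gapdh, the dehydrogenase often used as a loading control, differed by -0.26 (adjusted p = 0.634), and 18 of its 21 other probes had the same sign, with a median of -0.48.

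Pfkp and Pfkfb4, a kinase that makes the phosphofructokinase activator fructose 2,6-bisphosphate, were the 2 higher genes. Pfkfb4 stood at 2.97, 2.58, 3.17, 2.41 and 3.24 with PD153035, against -0.01, 0.05, 0.03, 2.40 and 2.40 in untreated KO ras cells (log2 difference 1.90 ± 0.57, adjusted p = 0.0394). The untreated values followed the run, since replicates 1 to 3 came from one run and replicates 4 and 5, which lay just below the PD153035 samples, from others. Pfkp stood at 1.87, 3.75, 4.32, 2.58 and 1.02 with PD153035, against -1.26, -0.86, -1.47, 1.52 and 2.86 in untreated KO ras cells (log2 difference 2.55 ± 0.79, adjusted p = 0.0483). Its groups overlapped, the same 3 untreated replicates were low, and its 3 other probes gave -0.51, -0.08 and 1.49, of which the last was called (adjusted p = 0.0463). The second Pfkfb4 probe gave 0.60 (adjusted p = 0.344). Pdk1 and Pdk3, kinases that shut the pyruvate dehydrogenase complex, differed by -0.97 (adjusted p = 0.13) and -0.57 (adjusted p = 0.308), and the activator-making kinase Pfkfb3 by -0.57 (adjusted p = 0.313).

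All 4 genes of HIF subunits and prolyl hydroxylases had lower means with PD153035, and Egln1 passed the test. Egln1, the main oxygen sensor that hydroxylates HIF, stood at -1.56, -1.76, -1.58, -0.63 and -0.40 with PD153035, against 0.97, 0.54, 1.00, -0.07 and -0.15 in untreated KO ras cells. These groups did not overlap, with a log2 difference of -1.64 ± 0.39 (adjusted p = 0.0104), but the 2 other Egln1 probes both gave 0.23, and the average of the 3 probes gave -0.39 (adjusted p = 0.286). Here too the untreated values followed the run. Replicates 1 to 3 came from one run, and replicates 4 and 5, which lay nearest the PD153035 samples, from others. Hif1a differed by -0.74 (adjusted p = 0.144), Epas1, the second oxygen-regulated HIF subunit, by -0.75 (adjusted p = 0.564) and the inducible hydroxylase Egln3 by -0.89 (adjusted p = 0.0927). None of the 8 further hypoxia targets was called, and 3 of them had an unadjusted p under 0.05 by limma, as did 6221 of 27957 probes. The collagen prolyl hydroxylase P4ha2 came nearest with -0.78 (adjusted p = 0.0697), while Vegfa, which drives vessel growth, differed by -0.74 (adjusted p = 0.26), Ddit4, an inhibitor of mTORC1, by 0.61 (adjusted p = 0.282) and the carbonic anhydrase Car9 by 0.25 (adjusted p = 0.689).

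**Figure D2:**
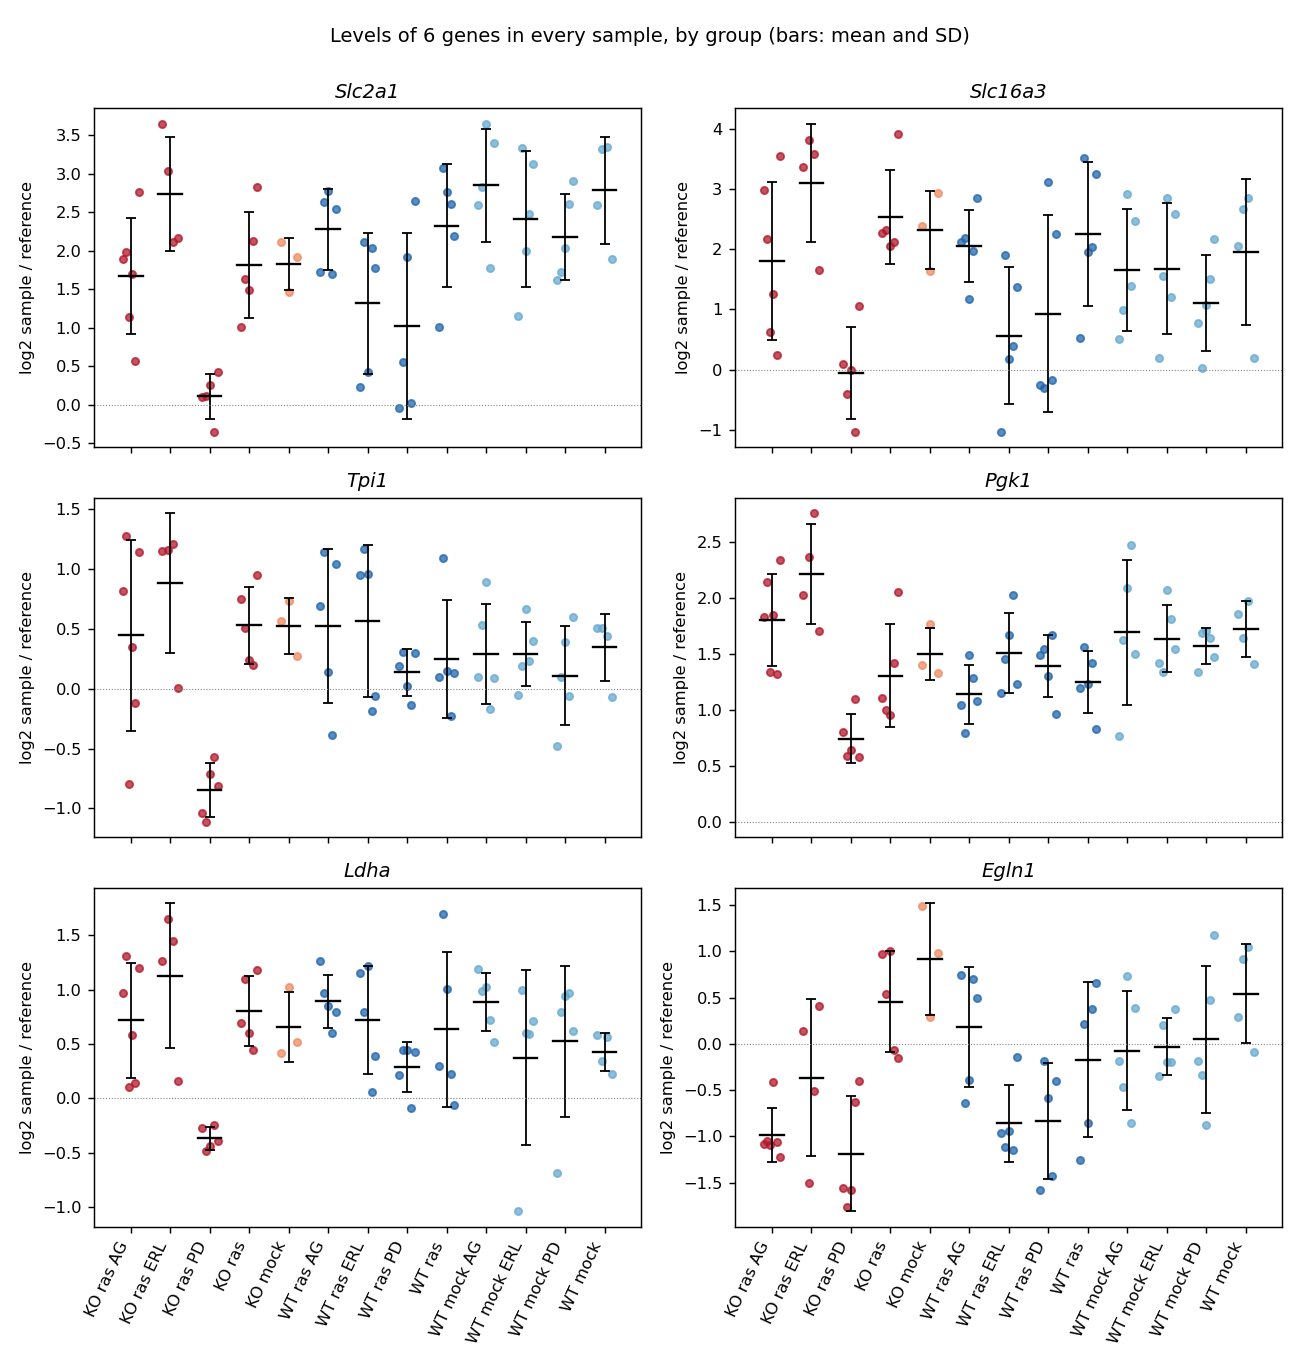
Level (log2 sample over reference) of 6 genes in every sample, by group, with 1 point per sample and black bars for the mean and SD. AG, ERL and PD stand for AG1478, erlotinib and PD153035, and the mean of KO ras cells with PD153035 is the lowest of the 13 in each panel, with Slc2a1 between -0.35 and 0.43 there against 1.01 to 2.83 in untreated KO ras cells.

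With the run as a random block, none of the 7 calls held, with log2 differences of -1.87 for Slc2a1, -2.60 for Slc16a3, -1.22 for Tpi1, -1.15 for Ldha and -1.54 for Egln1 and adjusted p-values of 0.439 to 0.552 for these 5. That block called 0 of all probes, against 1350 without it. Leaving out 1 sample at a time gave 3 to 10 calls, and Slc16a3, Tpi1 and Egln1 were called in each of the 10 fits. The count was 3 without untreated replicate 2 or without PD153035 replicate 2 or 3, and 10 without untreated replicate 4. Of 17 keratinocyte markers, 2 were lower with PD153035, the basal regulator Trp63 (-2.40, adjusted p = 0.0394) and Sfn (-2.45, adjusted p = 0.0106), while 4.83% of all probes were called. The keratinocyte list's median level per sample was 2.28 to 4.49 with PD153035 against 3.71 to 4.39 without. Of 8 endothelial markers Emcn was lower (-1.53, adjusted p = 0.0218), and of 8 leukocyte markers Cd3g was higher (1.78, adjusted p = 0.0282), while none of 10 fibroblast and 7 melanocyte markers was called. The median of the fibroblast markers was -2.25 to -0.42 with PD153035 against -1.82 to -0.23 without, that of the endothelial markers -1.94 to -0.57 against -3.27 to -0.63, that of the leukocyte markers -1.25 to -0.18 against -2.18 to -0.44 and that of the melanocyte markers 0.52 to 1.52 against 1.36 to 2.69. The SD of all log ratios of an array was 0.921 to 1.436 with PD153035 against 1.112 to 1.749 without. The part of the cell types and of this spread in the result was not tested.

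The response to PD153035 was not shown to differ between genotypes for any of the 34 genes. The difference of the PD153035 effect, KO minus WT in ras cells, was largest by p for Tpi1 (-1.27, adjusted p = 0.216), with 0.0933% of all probes called. An unadjusted p under 0.05 by limma was found for 7 of 34 genes and for 2823 of 27854 probes. In WT ras cells PD153035 called none of the 34 genes and 0.66% of all probes. Of the 34, 5 had an unadjusted p under 0.05 by limma, as did 3407 of 27893 probes. The smallest p-values there were those of Hk2 (-1.09, adjusted p = 0.0801) and Pdk1 (-1.30, adjusted p = 0.11). In WT mock cells PD153035 called none of the 34 and 0% of all probes, and Pfkl (-0.49) and Gapdh (-0.44) had the smallest p-values. None of the 34 had an unadjusted p under 0.05 by limma, against 952 of 27893 probes.

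The inhibitors were then set against one another in KO ras cells, at the same dose and time, to see where they differed directly. Over 3 kinds of cells, 9 pairs of inhibitors were compared. AG1478 and PD153035 in KO ras cells lay in the same single run, the only one of the 3 pairs in KO ras cells to share a run. There, 2 of 34 genes were higher with AG1478, against 0.745% of all probes called. Leaving out 1 sample at a time gave 1 call (without AG1478 replicate 6) to 4 calls (without AG1478 replicate 5). With signs and dye term by label 7 were called, and 1440 of all probes, against 208 in the main fit. The 2 genes were Pgk1, the first enzyme of glycolysis to yield ATP, and Tpi1.

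Pgk1 ranged from 1.32 to 2.34 with AG1478, with a median of 1.84, against 0.80, 0.59, 0.64, 1.10 and 0.58 with PD153035. The groups did not overlap, and Pgk1 was 2.10-fold higher with AG1478, a log2 difference of 1.07 ± 0.23 (95% interval 0.60 to 1.54, adjusted p = 0.0115, and 0.0158 over the 9 pairs). The second Pgk1 probe gave 1.27 and was called too (adjusted p = 0.0052), and without the 2 AG1478 arrays of disputed dye order the difference was 1.22 (adjusted p = 0.00925). With the signs of those 2 arrays taken from the dye label it was -0.0043 (adjusted p = 0.996). Tpi1 ranged from -0.80 to 1.28 with AG1478, with a median of 0.59, against -1.04, -1.11, -0.71, -0.57 and -0.81 with PD153035. AG1478 replicate 3, one of the 2 disputed arrays, fell among the PD153035 samples, and the log2 difference was 1.28 ± 0.27 (95% interval 0.74 to 1.81, adjusted p = 0.00697, and 0.0103 over the 9 pairs). Without the disputed arrays it was 1.53 (adjusted p = 0.00256). The second Tpi1 probe gave 0.23 (adjusted p = 0.938) and the average of both 0.76 (adjusted p = 0.141). With the run as a fixed block, fitted only on groups linked by shared runs, Tpi1 (1.28, adjusted p = 0.0191) and Pgk1 (1.06, adjusted p = 0.0133) remained called. Since both groups lay in a single run, that term cannot adjust their contrast for run.

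Ldha and Slc2a1 had samples apart in this pair but missed the threshold. Ldha ranged from 0.10 to 1.31 with AG1478 against -0.49 to -0.25 with PD153035 (log2 difference 1.07, 95% interval 0.48 to 1.66, adjusted p = 0.0633), and Slc2a1 from 0.57 to 2.77 against -0.35 to 0.43 (1.55, 0.66 to 2.44, adjusted p = 0.0794). Slc16a3 overlapped, with 0.25 to 3.55 with AG1478 against -1.03 to 1.05 with PD153035 (1.84, 0.63 to 3.05, adjusted p = 0.158). Ldha, but not Slc2a1, was called with the run as a fixed block (1.07, adjusted p = 0.0133). Within this pair that fit changes the groups used and adjusts nothing for run. The median difference over the 34 genes was 0.36, against -0.02 over all probes. Of 17 keratinocyte markers none was called in this pair, with 2 at an unadjusted p under 0.05 by limma, as were 2729 of 27921 probes. The markers' median level per sample was 3.14 to 4.97 with AG1478 against 2.28 to 4.49 with PD153035.

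Erlotinib against PD153035 in KO ras cells gave the largest number of calls of the 9 pairs. In KO ras cells 9 of the 34 genes were higher with erlotinib and none was lower, against 3.47% of all probes called higher and 2.35% called lower (5.82% in all). The median difference was 0.64, against -0.02 over all probes. The genes were Slc2a1, Slc16a3, 5 enzymes (Pfkl, Tpi1, Pgk1, Pgam1 and Ldha), the hydroxylase Egln3 and the collagen hydroxylase P4ha2.

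Slc16a3 stood at 3.36, 3.81, 3.57 and 1.65 with erlotinib, against 0.09, -0.40, 0.00, -1.03 and 1.05 with PD153035. The groups lay apart, and Slc16a3 was 9.10-fold higher with erlotinib (log2 difference 3.19 ± 0.67, 95% interval 1.85 to 4.53, adjusted p = 0.00242, and 0.0112 over the 9 pairs). Slc2a1 stood at 3.65, 3.03, 2.12 and 2.16 with erlotinib, against 0.10, 0.12, 0.26, -0.35 and 0.43 with PD153035, and it too lay apart. It was 6.23-fold higher (log2 difference 2.64 ± 0.49, 1.66 to 3.63, adjusted p = 0.000691, and 0.00328 over the pairs). Tpi1 stood at 1.15, 1.16, 1.21 and 0.01 with erlotinib, against -1.11 to -0.57 with PD153035 (1.76 ± 0.29, adjusted p = 0.000181, and 0.000839 over the pairs). Its second probe had the opposite sign (-0.44, adjusted p = 0.621).

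Pgk1 stood at 2.03, 2.37, 2.76 and 1.71 with erlotinib, against 0.58 to 1.10 with PD153035, and was 2.77-fold higher (1.47 ± 0.26, 95% interval 0.95 to 1.99, adjusted p = 0.000313, and 0.00163 over the pairs). The second Pgk1 probe gave 1.42 (adjusted p = 0.00147). Ldha stood at 1.26, 1.65, 1.45 and 0.16 with erlotinib, against -0.49 to -0.25 with PD153035, and was 2.85-fold higher (1.51 ± 0.33, 0.86 to 2.17, adjusted p = 0.00315, and 0.0144 over the pairs). In Slc2a1, Slc16a3, Tpi1, Pgk1 and Ldha no erlotinib sample reached down to a PD153035 sample. The share of all probes with samples apart in this pair is not reported here, so the lack of overlap does not set these genes apart. The samples overlapped in the other 4 called genes, Egln3 (1.27, adjusted p = 0.0204), Pfkl (0.97, adjusted p = 0.0353), Pgam1 (0.97, adjusted p = 0.031) and P4ha2 (0.95, adjusted p = 0.0317), in each of which erlotinib replicate 4 was lowest, and none of these 4 passed over the 9 pairs. Of the 21 other Gapdh probes, 20 had the same sign as the probe used (0.71, adjusted p = 0.15).

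These 2 groups shared no run, and with the run as a random block none of the 9 was called, with adjusted p-values of 0.154 for Slc2a1 (2.57), 0.323 for Slc16a3 (2.90), 0.162 for Tpi1 (1.41), 0.103 for Pgk1 (1.40) and 0.303 for Ldha (1.34). That block called 6 of all probes, against 1608 without it. Leaving out single samples gave 5 to 13 calls, 5 without erlotinib replicate 3 or PD153035 replicate 3 and 13 without erlotinib replicate 4, and these 5 genes were called in each of the 9 fits. Of 17 keratinocyte markers, Trp63 (3.10, adjusted p = 0.00914) and Itga6 (1.80, adjusted p = 0.00174) were higher with erlotinib, while 5.82% of all probes were called. The keratinocyte list's median per sample was 3.72 to 4.80 with erlotinib against 2.28 to 4.49 with PD153035. Sox10, of 7 melanocyte markers, was higher (1.61, adjusted p = 0.0251), while Thy1, Esam and Cd3g, of 10 fibroblast, 8 endothelial and 8 leukocyte markers, were lower (-1.55, -2.60 and -2.36, adjusted p = 0.0447, 0.0132 and 0.00416). The median per sample was 1.74 to 2.44 with erlotinib against 0.52 to 1.52 with PD153035 for the melanocyte list, -1.85 to -1.38 against -2.25 to -0.42 for the fibroblast list, -3.11 to -1.14 against -1.94 to -0.57 for the endothelial list and -2.39 to -1.17 against -1.25 to -0.18 for the leukocyte list. The SD of all log ratios of an array was 1.396 to 1.678 with erlotinib against 0.921 to 1.436 with PD153035. The part of the cell types and of this spread in the result was not tested.

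**Figure D3:**
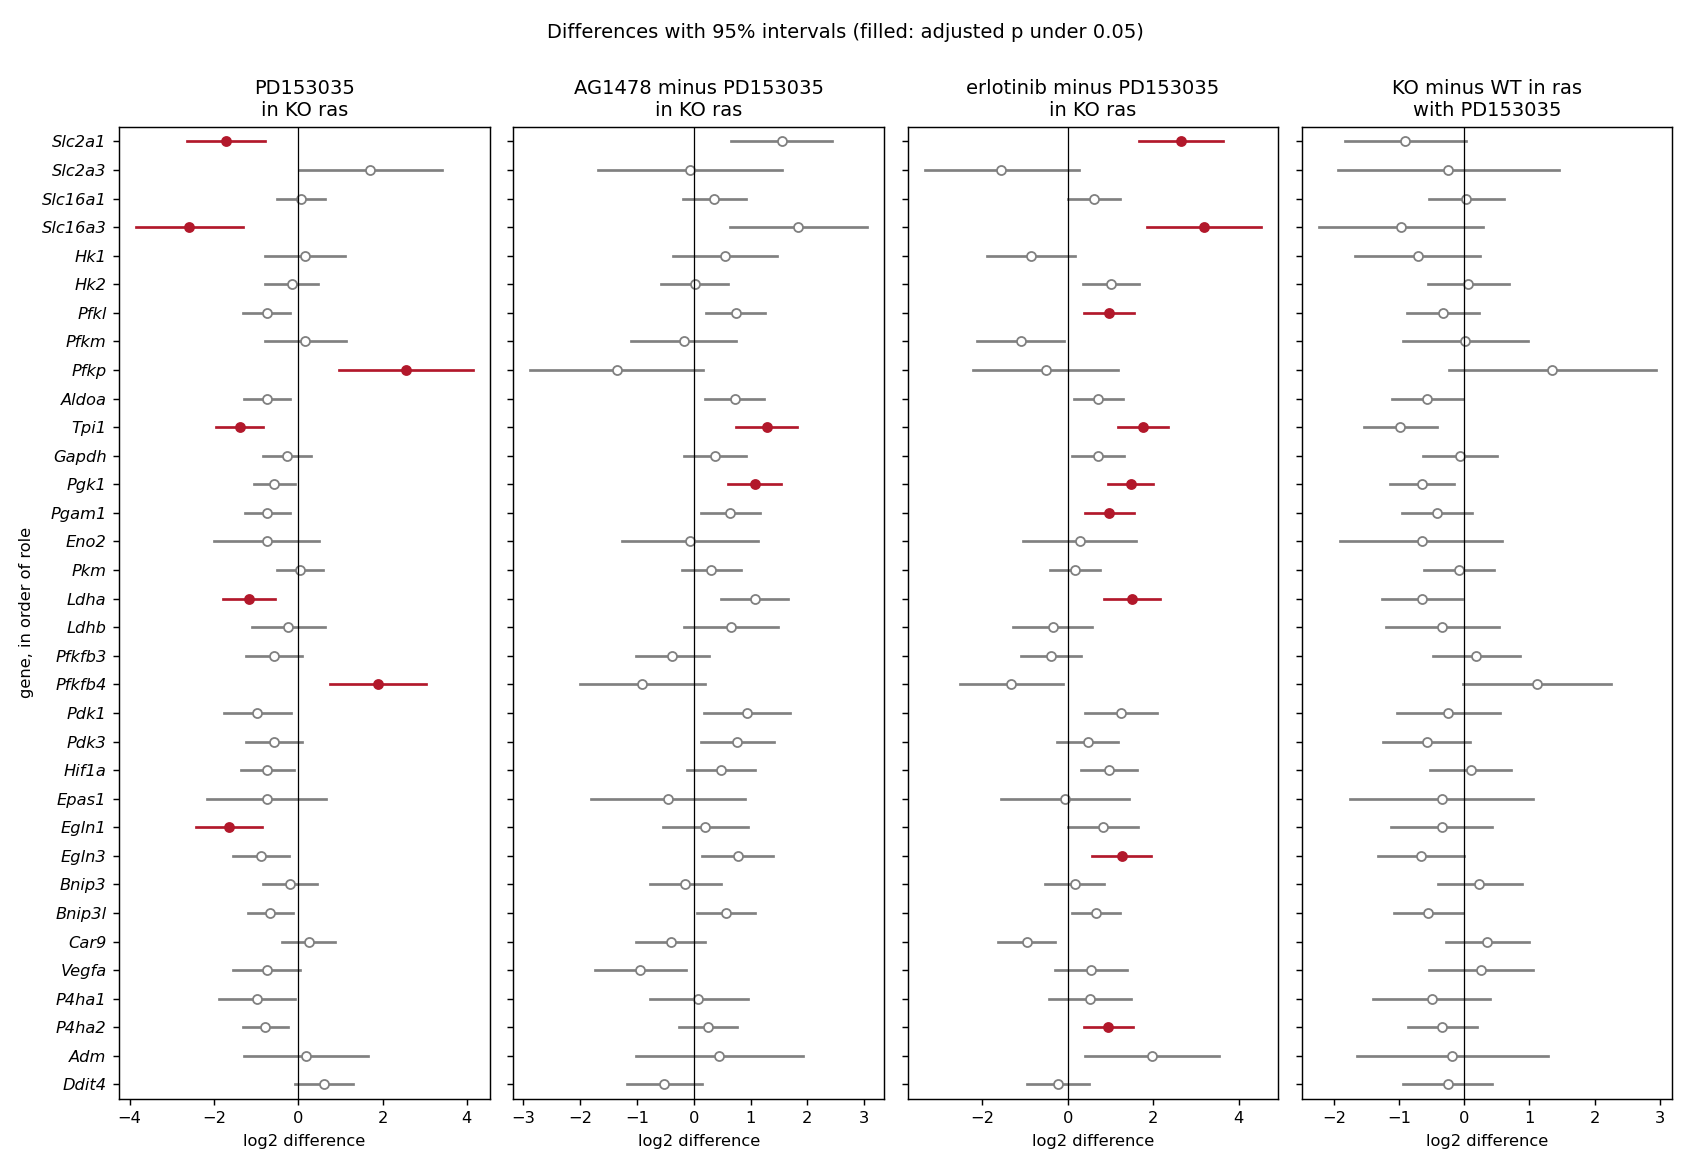
Log2 differences of the 34 genes (rows, in order of role) with 95% intervals in 4 comparisons, PD153035 minus untreated in KO ras cells, AG1478 minus PD153035 and erlotinib minus PD153035 in KO ras cells, and KO minus WT ras cells with PD153035. Filled red points passed an adjusted p of 0.05, which is 7, 2, 9 and none of the 34 genes.

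AG1478 against erlotinib in KO ras cells called none of the 34 genes and 0.243% of all probes. Of the 34, 7 had an unadjusted p under 0.05 by limma, as did 3281 of 27601 probes. Vegfa (-1.48, adjusted p = 0.114) and Hk2 (-0.99, adjusted p = 0.167) had the smallest p-values. The intervals were wholly negative (lower with AG1478) for both genes of the transport pair, though neither was called. They ran from -2.04 to -0.14 for Slc2a1 and from -2.63 to -0.05 for Slc16a3. That of Ldha spanned both signs, from -1.07 to 0.19. With signs and dye term by label 11 of the 34 were called, and none without the 2 disputed arrays. These 2 settings called 3882 and 5 of all probes, against 67 in the main fit. The 2 groups shared no run.

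In WT ras cells none of the 34 genes was called between any pair of inhibitors. AG1478 against erlotinib had 6 genes (and 3752 of 27750 probes) at an unadjusted p under 0.05 by limma, with 0.897% of all probes called. It came nearest at Egln3 (1.14, adjusted p = 0.0724). AG1478 against PD153035 had 5 (and 4905 of 27758 probes), with 1.29% of all probes called, and came nearest at Pfkp (-2.33, adjusted p = 0.105). With the run as a fixed block Epas1 was called in AG1478 against PD153035 (2.77, adjusted p = 0.0174), against 1.12 (adjusted p = 0.658) without the block. With the block this contrast rests on 2 AG1478 arrays, since the other 3 were alone in their run. Leaving out 1 sample gave 1 call without AG1478 replicate 2 or 5 for AG1478 against erlotinib, and without PD153035 replicate 5 for AG1478 against PD153035. Erlotinib against PD153035 had 3 genes (and 2518 of 27913 probes) at an unadjusted p under 0.05, with 0.176% of all probes called. It came nearest at Pfkfb3 (0.97, adjusted p = 0.303). For erlotinib minus PD153035 in WT ras cells Slc2a1 differed by 0.30 (95% interval -0.63 to 1.23), Tpi1 by 0.43 (-0.12 to 0.99), Pgk1 by 0.12 (-0.37 to 0.61) and Ldha by 0.43 (-0.19 to 1.05). The difference between these intervals and those in KO ras cells was not tested.

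In WT mock cells the 3 pairs called none of the 34 genes and 0% of all probes. By limma 2 genes (AG1478 against erlotinib), 1 gene (AG1478 against PD153035) and 0 genes (erlotinib against PD153035) had an unadjusted p under 0.05. Over all probes it was 865 of 27909, 852 of 27894 and 320 of 27992 in the same order. For erlotinib minus PD153035 the intervals were -0.69 to 1.16 for Slc2a1, -0.38 to 0.73 for Tpi1, -0.42 to 0.56 for Pgk1 and -0.77 to 0.46 for Ldha. For AG1478 minus PD153035 they were -0.26 to 1.60 for Slc2a1, -0.38 to 0.73 for Tpi1, -0.37 to 0.61 for Pgk1 and -0.26 to 0.98 for Ldha. These intervals do not show that the inhibitors act alike.

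**Figure D4:**
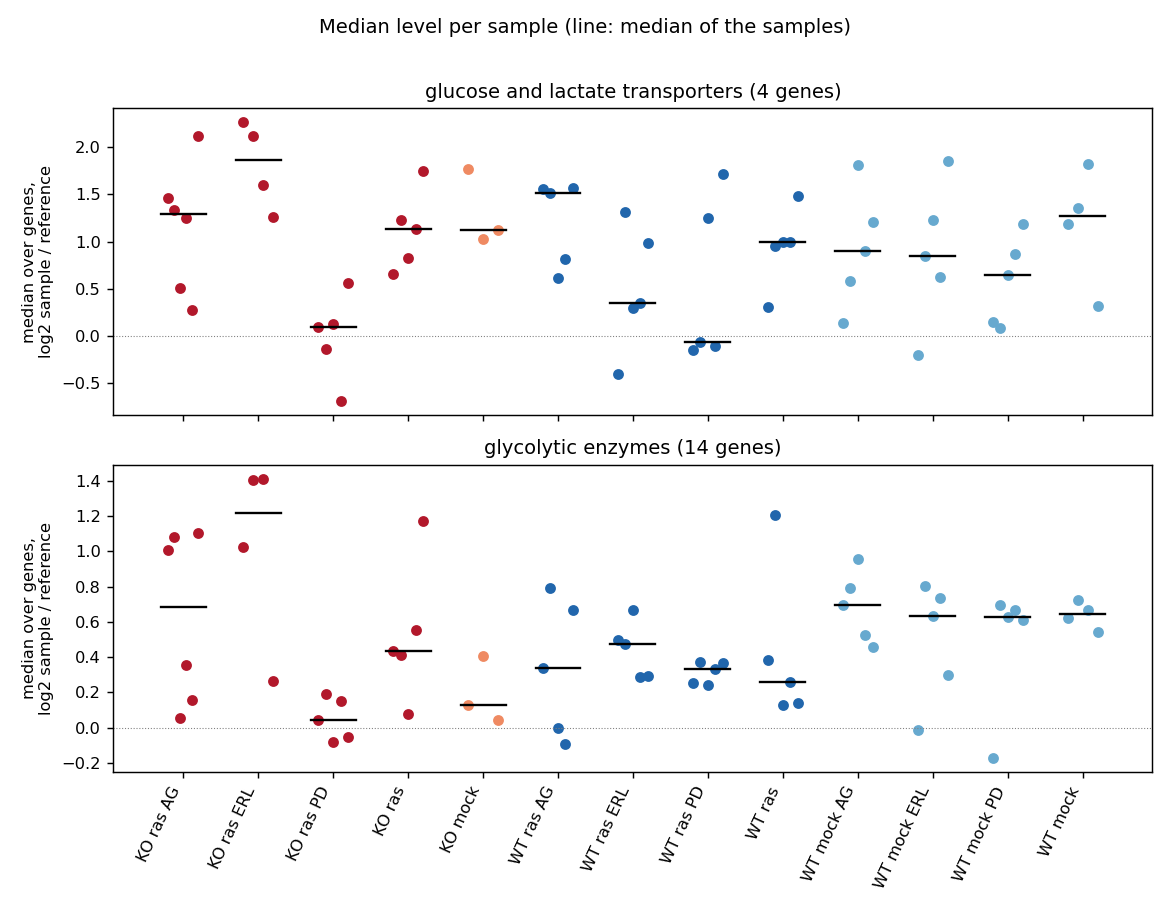
Median level over the 4 glucose and lactate transporters (top) and over the 14 glycolytic enzymes (bottom) in every sample, as log2 sample over reference, by group, with a line at the median of the samples. AG, ERL and PD stand for AG1478, erlotinib and PD153035, and the enzymes' median is -0.08 to 0.19 in KO ras cells with PD153035, against 0.27 to 1.41 with erlotinib and 0.08 to 1.17 without inhibitor.

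AG1478 and erlotinib were set against the same untreated KO ras samples as PD153035, so the 3 comparisons share them. With AG1478, 1 of 34 genes was lower, with 0.225% of all probes called. Vegfa, the angiogenic growth factor, stood at -2.31, -2.24, -2.29, -2.65 and -2.60 with AG1478, with no value in replicate 6, against -0.28, -0.14, -0.54, -1.85 and -0.86 in untreated KO ras cells. The groups did not overlap, and Vegfa was 3.21-fold lower (log2 difference -1.68 ± 0.40, adjusted p = 0.0457). Without the 2 disputed arrays it was -1.67 (adjusted p = 0.0867), and with their signs taken from the label 0.29 (adjusted p = 0.797). With the run as a random block it was -1.85 (adjusted p = 1). These groups shared no run. Erlotinib called none of the 34 in KO ras cells and 0.0543% of all probes. Erlotinib samples shared runs with some of the untreated ones. Their median difference over the 34 genes was 0.22. Between settings it ranged from -0.08 (run as a fixed block) to 0.35 (replicate block), and it was 0.00 with quantile normalization. An unadjusted p under 0.05 by limma was found for 8 of the 34 and for 3275 of 27641 probes. Pgk1 (0.90, adjusted p = 0.134) and Adm, the vasodilator adrenomedullin (2.15, adjusted p = 0.244), had the smallest p-values.

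In WT ras cells, where the target of the inhibitors is present by label, 1 gene was called with AG1478 and 3 with erlotinib. Hk2, the hexokinase that responds to growth signals, stood at 0.58, 0.88, -0.21, 1.27 and 1.02 with AG1478, against 1.14, 1.28, 1.96, 1.69 and 2.95 in untreated WT ras cells. The groups overlapped at 1 sample of each, and Hk2 was 2.14-fold lower (log2 difference -1.10 ± 0.31, adjusted p = 0.0472), while 1.94% of all probes were called. With the run as a random block the difference was -1.14 (adjusted p = 0.417), and Hk2 was called in 4 of the 10 fits that left out 1 sample.

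With erlotinib in WT ras cells Pdk1 and Vegfa fell and Car9 rose, against 3.4% of all probes called. Car9, a HIF target that handles acid at the cell surface, stood at 1.24, 0.29, 0.73, 1.21 and 0.91 with erlotinib, against -0.12, 0.07, -0.60, -0.17 and -0.31 in untreated WT ras cells. The groups lay apart (log2 difference 1.10 ± 0.32, adjusted p = 0.0395), and the second Car9 probe gave 0.56 (adjusted p = 0.544). Vegfa stood at -2.03, -2.33, -2.07, -1.77 and -2.04 with erlotinib, against -0.93, -0.61, 0.05, -0.65 and -1.52 without, also apart (-1.32 ± 0.40, adjusted p = 0.0498). Car9 and Vegfa are both textbook HIF targets, and here they moved in opposite directions. Pdk1 stood at 0.02, -0.25, 0.43, 0.42 and 0.64 with erlotinib, against 0.45, 2.49, 1.74, 1.47 and 1.85 without, overlapping at 1 untreated sample (-1.35 ± 0.39, adjusted p = 0.0434). These groups shared no run, and with the run as a random block the differences were 0.92 for Car9 (adjusted p = 0.428), -1.0 for Vegfa (adjusted p = 0.466) and -1.45 for Pdk1 (adjusted p = 0.272). Leaving out 1 sample at a time gave 0 to 4 calls, and Vegfa was called in none of those 10 fits.

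In WT mock cells AG1478 and erlotinib called none of the 34 genes and 0% of all probes, with 3 of the 34 at an unadjusted p under 0.05 by limma in each case. Over all probes it was 1800 of 27812 with AG1478 and 885 of 27910 with erlotinib. With AG1478, Egln3 (0.85, adjusted p = 0.719) and the mitophagy receptor Bnip3 (-0.80, adjusted p = 0.729) had the smallest p-values. With erlotinib they were Bnip3 (-0.86) and Car9 (-0.77). The difference of the inhibitor effect between genotypes, KO minus WT in ras cells, called none of the 34 genes for AG1478 (0.874% of all probes called, 7 genes at an unadjusted p under 0.05, nearest Pfkfb3 with -1.71 and an adjusted p of 0.0539) or erlotinib (0.0653%, 10 genes, nearest Car9 with -1.82 and 0.119). An unadjusted p under 0.05 by limma was found for 4672 of 27679 probes with AG1478 and 3113 of 27565 with erlotinib.

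**Figure D5:**
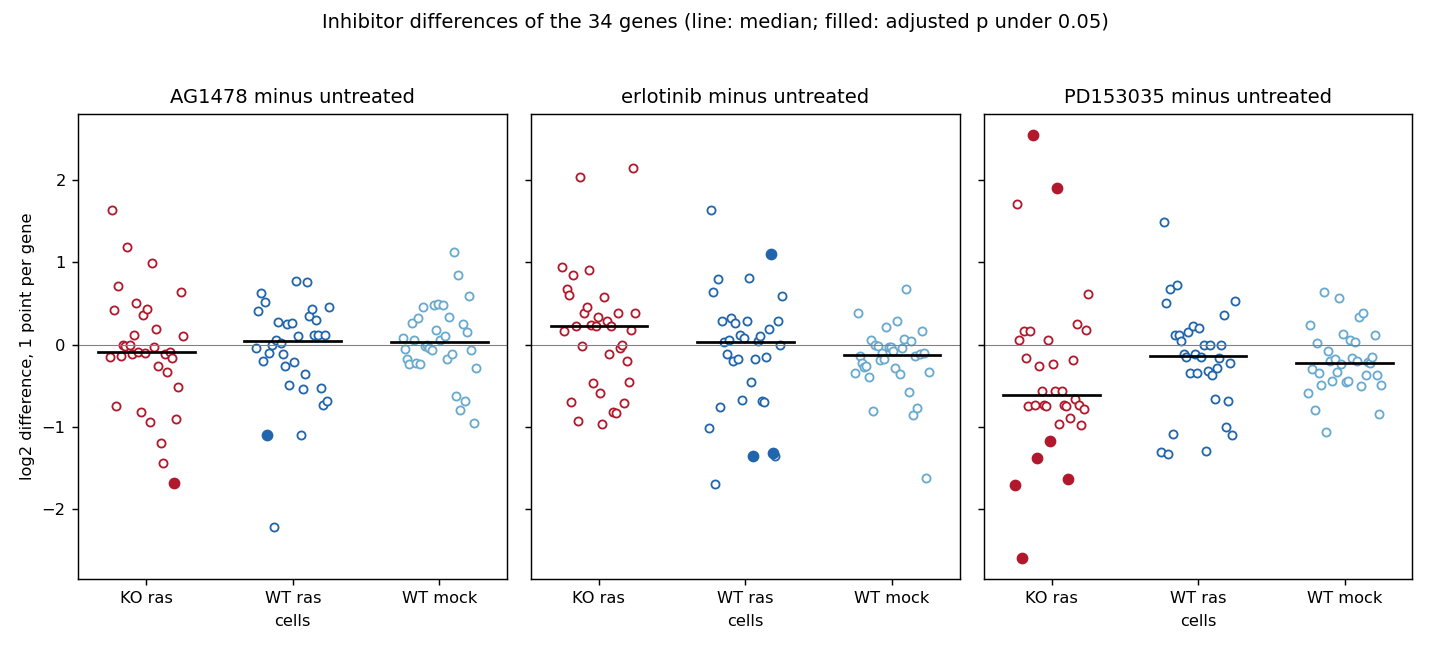
Log2 difference of each of the 34 genes between inhibitor and untreated cells (1 point per gene, line at the median, filled where the adjusted p was under 0.05), for AG1478, erlotinib and PD153035 in KO ras, WT ras and WT mock cells. The median is -0.62 for PD153035 in KO ras cells and between -0.22 and 0.22 in the other 8 comparisons.

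KO and WT cells were compared under each condition to see whether the genes differed with the receptor genotype. In mock cells 1 of 34 genes was called, against 1.11% of all probes. Pkm, the last enzyme of glycolysis, stood at 1.27, 1.05 and 1.71 in KO mock cells, against 2.85, 2.89, 2.42 and 2.41 in WT mock cells. The groups lay apart, and Pkm was 2.36-fold lower in KO cells (log2 difference -1.24 ± 0.33, adjusted p = 0.0447). Adm fell just outside the threshold, with 1.08, -0.69 and -0.04 in KO mock cells against 4.21, 3.34, 3.39 and 2.61 in WT mock cells (-3.26 ± 0.89, adjusted p = 0.0505). In all, 9 of the 34 genes had samples apart, 7 of them lower in KO, while 20% of all probes had samples apart with these small groups. KO and WT mock cells shared no run, Pkm was called in none of the 7 fits that left out 1 sample, and with the run as a random block the difference was -1.25 (adjusted p = 0.49). Beside this, 3 of 17 keratinocyte markers were higher in KO mock cells (Krt14 by 3.09, Krt15 by 3.13 and Krt10 by 2.37), with adjusted p-values of 0.0447, 0.000136 and 0.0248, and their part in the result was not tested.

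In ras cells without inhibitor KO minus WT called none of the 34 and 1.92% of all probes, and Hk2 (-0.87, adjusted p = 0.122) and Hif1a (0.82, adjusted p = 0.155) came nearest. An unadjusted p under 0.05 by limma was found for 3 of the 34 and for 4697 of 27966 probes. With PD153035 none was called either, against 1.38% of all probes. There 6 of the 34 and 2903 of 27934 probes had an unadjusted p under 0.05. Tpi1 came nearest there, with -1.04, -1.11, -0.71, -0.57 and -0.81 in KO ras cells against 0.19, 0.31, 0.02, -0.14 and 0.30 in WT ras cells, both with PD153035. These samples did not overlap and shared a run (log2 difference -0.99, adjusted p = 0.0537).

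With erlotinib, KO ras cells had higher Slc16a3 and lower Car9 than WT ras cells, against 0.945% of all probes called. Slc16a3 stood at 3.36, 3.81, 3.57 and 1.65 in KO ras cells, against -1.03, 1.91, 0.17, 0.40 and 1.37 in WT ras cells with erlotinib. The groups overlapped at 1 sample of each (2.57 ± 0.67, adjusted p = 0.043, and 0.0286 with the run as a random block). Car9 stood at -1.08, 0.43, -0.78 and -0.42 in KO ras cells, against 1.24, 0.29, 0.73, 1.21 and 0.91 in WT ras cells with erlotinib (-1.35 ± 0.34, adjusted p = 0.0344, and 0.0174 with the run as a random block). With the run as a fixed block Car9 missed the threshold (-1.33, adjusted p = 0.0527), as it did with its probes averaged (-1.04, adjusted p = 0.0571), while Slc16a3 was called with the fixed block (2.73, adjusted p = 0.0145). KO replicate 2 reached into the WT range, and the second Car9 probe gave -0.09 (adjusted p = 0.944). These groups shared 2 runs. Without 1 sample at a time Slc16a3 was called in 3 and Car9 in 2 of the 9 fits. Beside this, the keratinocyte markers Trp63 (3.22, adjusted p = 0.0252) and Itga6 (1.46, adjusted p = 0.0353) were higher in KO, and their part in the result was not tested. With AG1478 Pfkfb3 was lower in KO ras cells, against 2.22% of all probes called. It ranged from -1.62 to -0.94 in KO, with a median of -1.20, against -0.48, -0.54, -0.13, 0.51 and -0.07 in WT ras cells with AG1478. The groups lay apart (-1.12 ± 0.32, adjusted p = 0.0472), but the call was lost in each of the 11 fits that left out 1 sample and without the 2 disputed arrays (-1.05, adjusted p = 0.142). A fixed run block called Pfkfb3 (-1.41, adjusted p = 0.0194), Hif1a (1.45, 0.0138), Epas1 (-3.55, 0.00154) and Vegfa (-1.89, 0.0242), and 862 of all probes, against 615 without it. That contrast rests on the 2 WT arrays in the shared run. A random run block called Epas1 alone (-2.76, adjusted p = 0.0411).

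v-rasHa called none of the 34 genes in either genotype without inhibitor. In WT cells 3 genes (and 1860 of 27859 probes) had an unadjusted p under 0.05 by limma, with 0.183% of all probes called. Bnip3 (-0.91, adjusted p = 0.591) and Hif1a (-0.83, adjusted p = 0.617) came nearest. The second Hif1a probe went the other way, with a mean of -0.28 in WT ras against -0.89 in WT mock cells. In KO cells 4 genes (and 1910 of 28034 probes) had such a p, with 0.539% of all probes called. Pgam1 (1.03, adjusted p = 0.159) and Pkm (0.97, adjusted p = 0.221) came nearest there. The ras effect was not shown to differ between genotypes for any of the 34, with 0.0108% of all probes called. Of the 34, 8 had an unadjusted p under 0.05 by limma, as did 1643 of 27852 probes. Hif1a (1.38, adjusted p = 0.627) and Bnip3 (1.37, adjusted p = 0.68) came nearest. On the second Hif1a probe the mean was 0.34 in KO ras against 0.29 in KO mock cells, a smaller rise than in WT cells. None of these p-values shows that ras leaves the genes as they are.

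Under an inhibitor the comparison of ras with mock WT cells called 2 genes with AG1478, 2 with erlotinib and none with PD153035. With AG1478 Pfkp stood at -1.52, -1.21, -0.09, 0.04 and -2.08 in ras cells, against 2.17, 3.18, 2.44, 2.87 and 0.40 in mock cells, and the groups lay apart (-3.18 ± 0.79, adjusted p = 0.0109, with 5.17% of all probes called). Of its 3 other probes 1 was also called (adjusted p = 0.0218), with the lowest of the 3 differences at -1.92 and the other 2 positive. Hif1a stood at 1.20, 1.34, 0.21, 1.16 and 1.65 in ras cells with AG1478, against 2.48, 2.11, 2.82, 2.23 and 1.23 in mock cells with AG1478 (-1.06 ± 0.31, adjusted p = 0.0324). One mock sample lay within the ras range, and the second Hif1a probe had the opposite sign (0.37, adjusted p = 0.67).

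With erlotinib Car9 stood at 1.24, 0.29, 0.73, 1.21 and 0.91 in WT ras cells, against 0.01, -1.06, -0.15 and 0.07 in WT mock cells, with no value in mock replicate 1 (1.17 ± 0.34, adjusted p = 0.0293, with 5.23% of all probes called). The groups lay apart. Hk1 stood at -0.23, -1.72, -2.51, -3.10 and -2.41 in ras cells with erlotinib, against -3.54, -4.08, -3.33, -2.98 and -3.86 in mock cells with erlotinib, overlapping at 1 ras sample (1.56 ± 0.48, adjusted p = 0.0419). The 2 other Hk1 probes gave 0.00 and 0.33, and neither was called. With PD153035 none was called, against 1.19% of all probes, and Slc2a1 (-1.16, adjusted p = 0.271) and Hk1 (1.16, adjusted p = 0.293) came nearest. An unadjusted p under 0.05 by limma was found for 7 of the 34 and for 3256 of 27932 probes. Ras and mock cells shared no run in these 3 comparisons, and with the run as a random block the differences were -3.16 for Pfkp, -1.18 for Hif1a, 1.00 for Car9 and 1.66 for Hk1, with adjusted p-values of 0.196 to 0.36.

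Lists of neighbouring genes were set beside the 34, with a probe for 21 of 28 other glycolysis genes, 36 of 40 other HIF pathway genes, 13 of 22 genes of pyruvate dehydrogenase and the citric acid cycle and 4 of 7 of the pentose phosphate pathway. With PD153035 in KO ras cells 4.83% of all probes were called. There, 1 of 21 other glycolysis genes was lower (Mpc1, part of the mitochondrial pyruvate carrier, by -1.05, adjusted p = 0.0399), and their median difference was -0.03. Of 36 other HIF pathway genes and targets, 2 were higher, the clock-related repressor Bhlhe41 (1.77, adjusted p = 0.00418) and the glycogen-targeting Ppp1r3c (0.97, adjusted p = 0.03), with a median of -0.04. Both counts lay near the share over all probes. None of 13 genes of pyruvate dehydrogenase and the citric acid cycle was called, with a median of -0.23. None of these had an unadjusted p under 0.05 by limma, against 6221 of 27957 probes. Of 4 genes of the pentose phosphate pathway, Pgd, which makes NADPH there, was lower (-1.03, adjusted p = 0.0225).

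In the pair with a shared run, AG1478 minus PD153035 in KO ras cells, 2 of the 36 other HIF pathway genes were higher and 1 was lower, against 0.745% of all probes called. None of the 21 other glycolysis genes was called, with 3 at an unadjusted p under 0.05 by limma, as were 2729 of 27921 probes. Fam162a, a HIF target of mitochondria, averaged 2.90 with AG1478 against 0.95 with PD153035 (1.93 ± 0.36, adjusted p = 0.00181). The repressor Bhlhe40, a HIF target, averaged 1.20 against -0.23 (1.43 ± 0.33, adjusted p = 0.0202). Rragd was lower, with -0.55 against 1.22 (-1.78 ± 0.40, adjusted p = 0.0175).

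In erlotinib minus PD153035 in KO ras cells, 5 of the 36 were higher and 1 was lower, against 5.82% of all probes called (3.47% higher and 2.35% lower). The higher ones were Fam162a (2.18, adjusted p = 0.0006), Car12 (1.84, adjusted p = 0.0141), Bhlhe40 (1.57, adjusted p = 0.00573), Ndrg1 (1.56, adjusted p = 0.00889) and the transferrin receptor Tfrc (1.44, adjusted p = 0.00377), and the lower one was Cited2, which competes with HIF for its coactivator (-1.13, adjusted p = 0.0113). Mpc1 was the 1 of 21 other glycolysis genes that was called (1.20, adjusted p = 0.0222). Of the 13 pyruvate dehydrogenase and citric acid cycle genes Ogdh was lower (-1.64, adjusted p = 0.0224). The 2 comparisons with PD153035 share the PD153035 samples. Medians over the 36 and 21 genes were -0.10 and 0.00 for AG1478 minus PD153035 and 0.08 and 0.04 for erlotinib minus PD153035, against -0.02 over all probes in both.

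Ndrg1, a target of HIF and of growth arrest, was called in more comparisons than any other gene of the 36. In WT ras cells it was higher with AG1478 (1.66, adjusted p = 0.0101), erlotinib (1.96, adjusted p = 0.00113) and PD153035 (1.96, adjusted p = 0.00199) than in untreated cells, which these 3 comparisons share. Treated and untreated cells shared no run there. With the run as a random block the probes called in all fell from 539 to 1, from 948 to 26 and from 184 to 1. With PD153035 Ndrg1 averaged -2.49 in KO ras cells against 0.43 in WT ras cells, which shared a run (-2.93 ± 0.36, adjusted p = 4.54e-07). The test of a differing response to PD153035 between the genotypes called Ndrg1 (-2.35, adjusted p = 0.04) and none of the 34 genes. Untreated cells of either genotype shared no run with the PD153035 samples. With the run as a random block this test called 4 probes in all, against 26 without the block. Values of Ndrg1 with that block are not reported here.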

How the data were processed

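The deposited values were log ratios of 2 dyes, taken as log2, and per the labels' protocols RNA was isolated with Trizol and labelled indirectly with Cy3 or Cy5. What the authors did to normalize them is not stated in the labels or files used here. The sign of a ratio was set so that sample stood over reference, judged by how an array correlated with the forward arrays' median, since 2 of 63 arrays opposed their dye label. Both WT mock arrays of repeat 1 were averaged. Probes were named from the platform annotation (20925 with 1 symbol, 159 with several, 6965 with none), and each gene was read by its probe with most values, the first listed on ties. All 13 groups were fitted together with dye order as a term (limma 3.58.1, statmod 1.5.0, R 4.3.3), on probes with a value in at least 60% of the samples of each group compared, and p-values were adjusted over all probes. Tables and figures used Python 3.11.15, pandas 2.3.3 and matplotlib 3.10.9, and the fit was tested on simulated data. The genes and lists were chosen with earlier results of these data known. In each comparison the called genes are named, up to 12 by size, or else the 2 with the smallest p. The 3 tests of a differing inhibitor effect between genotypes, and the replicate block without a dye term, were chosen after seeing the data. Alternatives tried were the dye term, forward arrays, the 2 disputed arrays, scaling, filters, array weights, run and replicate blocks, probe averaging and leaving out single samples.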

Additional observations from a re-analysis of the deposited data

Results flagged for a closer look

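Among 52 sets of 4 to 6 samples of 1 gene in 1 group, 5 held a sample far from the others, and chance flags about 1 in 20 groups. Erlotinib replicate 4 of KO ras cells stood low for 3 genes, with 0.01 against 1.15 to 1.21 in the others for Tpi1, -1.38 against 0.23 to 0.46 for Egln3 and -0.08 against 1.02 to 1.15 for P4ha2. PD153035 replicate 4 of KO ras cells stood high for Pgam1, with 1.09 against 0.44 to 0.57. Both replicates 4 were reversed-dye arrays by label. Untreated KO ras replicate 5 stood high for Slc16a3, with 3.91 against 2.05 to 2.31. Its array was a forward one.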

How the results depend on the processing

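Counts of called genes among the 34 are given here for each alternative that moved them by more than 1.5 times. Brackets after them give the calls over all probes in the same order, against those of the main fit. Probe averaging and the limit to probes on every array leave fewer probes to call. PD153035 in KO ras cells (7 in the report) gave 11 with forward arrays alone, 4 with signs and dye term by label, 4 with the 2 groups fitted alone, 16 with array weights and 0 with run as a random block (all probes 2531, 618, 403, 8950 and 0, against 1350). The inhibitor pairs (7, with p-values adjusted over all 9 pairs) gave 11, 13, 2, 40 and 2 under the same settings in that order. Calls over all probes were not counted with that adjustment. By pair, AG1478 minus erlotinib in KO ras cells (0) gave 11 by label and 11 with array weights (all probes 3882 and 3047, against 67). AG1478 minus PD153035 in KO ras cells (2) gave 7 by label, 12 with array weights and 1 with the groups alone or with averaged probes (all probes 1440, 1778, 218 and 180, against 208). Erlotinib minus PD153035 in KO ras cells (9) gave 20 with array weights and 0 with the random run block (all probes 8464 and 6, against 1608). In WT ras cells AG1478 minus PD153035 (0) gave 5 with array weights and 1 with run as a fixed block (all probes 4084 and 374, against 357), and AG1478 minus erlotinib (0) gave 1 with quantile normalization (all probes 421, against 249). KO minus WT mock cells (1) gave 0 with no dye term, by label, with the groups fitted alone and with the random run block, 4 with forward arrays or with both WT mock arrays of repeat 1 kept apart, 2 with quantile normalization and 9 with array weights (all probes 213, 107, 4, 5, 645, 673, 872 and 4915, against 310). AG1478 in WT ras cells (1) gave 0 with no dye term, without the 2 disputed arrays, by label, with median centring, with the groups fitted alone and with the random run block (all probes 274, 456, 276, 524, 3 and 1, against 539). Erlotinib in WT ras cells (3) gave 0 with no dye term, by label, with the groups alone and with the random run block, and 1 with forward arrays or with probes measured on every array (all probes 635, 470, 50, 26, 762 and 857, against 948). AG1478 in KO ras cells (1) gave 2 with forward arrays or quantile normalization, 3 by label, 6 with array weights and 0 with no dye term, without the disputed arrays, with probes on every array, with the groups alone or with the random run block (all probes 563, 480, 2286, 3473, 24, 53, 42, 14 and 0, against 63). KO minus WT ras cells with AG1478 (1) gave 3 by label, 4 with quantile normalization or run as a fixed block, 2 with array weights or averaged probes, and 0 with no dye term, forward arrays, without the disputed arrays or with the groups alone (all probes 1676, 1060, 862, 1539, 496, 501, 741, 291 and 236, against 615). With erlotinib (2) it gave 1 with no dye term, with probes on every array or with averaged probes, 0 with forward arrays, by label, with quantile normalization or the groups alone, 13 with array weights and 4 with the random run block (all probes 169, 214, 219, 175, 91, 78, 18, 3046 and 630, against 261). With PD153035 (0) it gave 1 without the disputed arrays, with quantile normalization, probes on every array, the groups alone or the random run block, and 11 with array weights (all probes 384, 643, 366, 909, 595 and 3425, against 386). The ras effect in WT cells with AG1478 (2) gave 1 by label or with the groups alone and 0 with the random run block (all probes 867, 152 and 145, against 1429). With erlotinib (2) it gave 1 by label or with probes on every array, 5 with quantile normalization, 6 with array weights and 0 with the groups alone or the random run block (all probes 895, 1313, 1690, 2793, 553 and 217, against 1461). Array weights also gave 1, 3, 12 and 5 where the report has 0, for KO minus WT ras cells, PD153035 in WT ras cells, erlotinib in KO ras cells and the ras effect in WT cells with PD153035 (all probes 2340, 726, 6837 and 2216, against 536, 184, 15 and 332). The cause of these shifts was not tested.

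Leaving out 1 sample at a time gave 0 calls throughout for KO minus WT mock cells, 0 to 1 for KO minus WT ras cells, AG1478 in WT ras cells, erlotinib in KO ras cells and KO minus WT ras cells with AG1478 or with PD153035, 0 to 2 for PD153035 in WT ras cells, AG1478 in KO ras cells and KO minus WT ras cells with erlotinib, 0 to 4 for erlotinib in WT ras cells, 3 to 10 for PD153035 in KO ras cells, 1 to 3 for the ras effect in WT cells with AG1478 and 0 to 3 with erlotinib. Calls over all probes in these fits are not reported here. In 2 cases the direction reversed, both with signs by label, for Vegfa with AG1478 in KO ras cells (0.29) and for Pgk1 in AG1478 minus PD153035 in KO ras cells (-0.0043).

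Replicate numbers did not pair the samples across groups. The median correlation of deviations was 0.002 over 344 same-number pairs, 103 of them over 0.1, against 0.001 over 1427 other pairs, and 18 of 62 samples correlated best with their own number. With the number as a replicate block, fitted without the dye term, the calls were 0 for PD153035 and AG1478 in KO ras cells, AG1478 in WT ras cells, KO minus WT mock cells, KO minus WT ras cells with AG1478, the ras effect in WT cells with erlotinib and the inhibitor pairs (in KO ras cells 0 for AG1478 and 2 for erlotinib against PD153035, each pair adjusted alone), and 1 for erlotinib in WT ras cells, KO minus WT ras cells with PD153035 and the ras effect in WT cells with AG1478. Calls over all probes were, in that order, 5, 0, 5, 17, 78 and 753. They were 0 and 489 for the 2 pairs, and then 194, 591 and 55.

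Signal over background is not given in the deposited ratios, so dim probes could not be told from bright ones.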
